A study of Homo sapiens with 6 samples.

Results

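The 10 tight junction genes described here are CLDN1, CLDN2, CLDN3, CLDN4, CLDN7, CLDN12, OCLN, TJP1, F11R and CGN. They were picked by symbol among 60662 genes with a deposited value, with earlier results of these data known. HCT116, an established human colorectal carcinoma cell line, was stably transduced with a lentiviral control plasmid (shCtrl) or with the GMDS-AS1 shRNA 2 plasmid (GMDS-AS1 KD). Poly-A RNA of 3 libraries per group was sequenced, and the labels call the libraries of a group biological replicates. GMDS-AS1 is a long non-coding RNA, and the comparison asks which transcripts differ when it is depleted. Both groups were grown in the same medium, and neither the age of the cultures nor the number of clones behind each line is given in the sources used here. A single shRNA against GMDS-AS1 was sequenced, so the depletion of GMDS-AS1 and any other effect of this hairpin cannot be told apart.

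Tight junctions seal the space between neighbouring epithelial cells and set which ions and solutes pass between them. Claudins are four-pass membrane proteins that form the strands of the junction, and some seal the strand while others, such as claudin-2, form pores for cations. Occludin and the immunoglobulin-like receptor JAM-A, encoded by F11R, lie in the same membrane, and ZO-1 (TJP1) and cingulin (CGN) form the cytoplasmic plaque that ties the strands to actin. In intestinal epithelium these proteins make up much of the paracellular barrier, and claudin-1 is known as a target of Wnt signalling in colorectal cancer.

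The sequence of the hairpin is shown first, because small hairpin RNAs can also act on transcripts that match only bases 2 to 8 of the guide strand, the seed. Capitals mark the seed in the guide strand and its match in the target strand.
shRNA 2 guide strand: tTACCATCtatctgtggtctt
shRNA 2 target strand: aagaccacagataGATGGTAa

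The 7-base match GATGGTA was absent from the 3' UTR of all 10 genes, each read in 1 principal transcript of GENCODE v29, with UTRs of 390 (CLDN3) to 4433 bases (OCLN). Among 12822 tested protein-coding genes, 845 (6.59%) held it, with a median UTR length of 1034 bases. This says only that these letters are not in the 3' UTR of these transcripts, since no other part and no other transcript was searched.

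The promoters of CLDN7, CLDN3 and CLDN4 are shown because these genes took the largest shares or lie next to each other with opposite changes, as given below. The sequences are from RefSeq (GRCh38.p14), run 5' to 3' on the strand of the gene and cover 250 bases before to 50 bases after a start site. Capitals mark the E-box CAGGTG and its reverse complement CACCTG, to which the repressors Snail, Slug and ZEB bind.
CLDN7 (chr17:7262429-7262728, minus strand): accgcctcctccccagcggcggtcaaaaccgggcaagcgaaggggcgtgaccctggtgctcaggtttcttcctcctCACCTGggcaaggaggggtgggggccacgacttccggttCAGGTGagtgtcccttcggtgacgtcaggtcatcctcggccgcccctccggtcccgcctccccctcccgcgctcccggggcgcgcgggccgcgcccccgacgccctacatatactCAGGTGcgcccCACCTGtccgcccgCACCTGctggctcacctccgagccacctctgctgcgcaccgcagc
CLDN3 (chr7:73770221-73770520, minus strand): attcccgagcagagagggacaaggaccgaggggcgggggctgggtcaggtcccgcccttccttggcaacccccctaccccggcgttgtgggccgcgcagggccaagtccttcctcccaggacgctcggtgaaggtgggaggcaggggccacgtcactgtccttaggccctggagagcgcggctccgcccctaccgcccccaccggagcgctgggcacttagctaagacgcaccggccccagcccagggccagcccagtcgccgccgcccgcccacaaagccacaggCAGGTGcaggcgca
CLDN4 (chr7:73830746-73831045, plus strand): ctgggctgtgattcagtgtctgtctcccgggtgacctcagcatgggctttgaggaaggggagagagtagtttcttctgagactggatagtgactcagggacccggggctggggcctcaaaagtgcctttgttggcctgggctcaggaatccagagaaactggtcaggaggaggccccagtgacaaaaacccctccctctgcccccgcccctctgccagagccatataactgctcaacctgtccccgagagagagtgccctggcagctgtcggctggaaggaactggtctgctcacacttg

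This CLDN7 promoter held 5 E-boxes, with first bases at -174, -135, -20, -9 and 6, counting the start site as 1 and the base before it as -1. Of 35116 promoters of the same length, 20.6% held at least 1 E-box and 33 (0.094%) held 5 or more, a number chosen after the CLDN7 count was seen. The CLDN3 promoter held 1 E-box at 37, and the CLDN4 promoter held none. Of the 10 genes, 9 had a promoter in the table, 15 promoters in all, and F11R had none there. An E-box was found in 5 of the 15, in CLDN3, 1 of 2 CLDN7 promoters, both OCLN promoters, which overlap each other, and 1 of 4 TJP1 promoters. The Sp1 motif GGGCGG was found in 9 of 15 (45.0% of all promoters) and the STAT motif TTCNNNGAA in 2 of 15 (7.66%), 1 each of CLDN12 and CLDN2. The CDX motifs TTTATG and TTTACG, the TEAD motif GGAATG and the TATA box TATAAA were found in none of the 15 and in 13.4%, 14.0% and 11.5% of all promoters. Both strands were searched, and no E-box shown overlapped an Sp1 motif. A match is a description of the letters and not a site of binding.

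Levels were deposited as TPM, a unit normalized for transcript length and for the total of each library, so that levels of different genes can be compared. Each library summed to 991058 to 992992 TPM, and 15135 to 15248 genes in the shCtrl libraries and 14163 to 14292 in the KD libraries reached 1 TPM. No read totals can be had from TPM, so the depth is unknown and no counting error was computed. The targeted gene is listed as GMDS-DT (ENSG00000250903) and had 1.66, 2.21 and 1.34 TPM in shCtrl cells and 0.88, 0.91 and 0.79 TPM in KD cells. The groups did not overlap, and the KD level was 49.5% of the shCtrl level as deposited and 58.9% after the scaling given below. The log2 fold change, taken on scaled TPM + 1, was -0.41 (SE 0.14, limma adjusted p = 0.0407). Of the epithelial markers, EPCAM stood at 141 to 165 TPM over the 6 libraries and the keratins KRT8, KRT18 and KRT19 at 688 to 4566 TPM, while VIL1, a microvillus protein, stayed at or under 0.41 TPM. Markers of other cells were low: PTPRC, which defines leukocytes, was 0 in every library, the 5 endothelial genes were at or under 0.53 TPM, and of the 6 fibroblast genes only COL1A1 (10.0 to 14.4 TPM) was above 0.5 TPM.

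Genes were tested if 3 or more libraries reached 0.5 TPM, and 16901 genes passed, among them 9 of the 10 tight junction genes. The libraries were scaled by a trimmed mean of log ratios, log2(TPM + 1) was compared with limma, and p-values were adjusted by Benjamini and Hochberg over all 16901 genes, with an adjusted p under 0.05 taken as a call. The median log2 fold change of all genes was -0.195 with TPM as deposited and -0.00203 after scaling, and 71.2% of the calls were lower as deposited against 47.6% after trimmed mean scaling and 56.7% after upper-quartile scaling. Fold changes below are after trimmed mean scaling and levels are TPM as deposited. Fold changes on log2(TPM + 1) are smaller than the ratio of TPM where levels are low.

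Of the 9 tested genes, 7 were lower in KD cells (CLDN3, CLDN7, CLDN12, OCLN, TJP1, F11R and CGN), CLDN4 was higher and CLDN2 was not called. Over all genes tested, 25.9% were called lower and 28.5% higher. The median log2 fold change of the 9 was -0.48. F11R was the single gene lower by at least 2-fold, where 4.24% of all genes were. With TPM as deposited, the same 7 genes were lower, against 40.3% of all genes, and none was higher, against 16.3%. In deposited TPM every KD library lay below every shCtrl library for 8 of the 9 tested genes and for CLDN1, where 44.9% of all tested genes did so, and above for CLDN4, where 18.8% did so. In these bulk libraries, fewer cells that express a gene and less RNA of it per cell cannot be told apart.

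**Figure D1:**
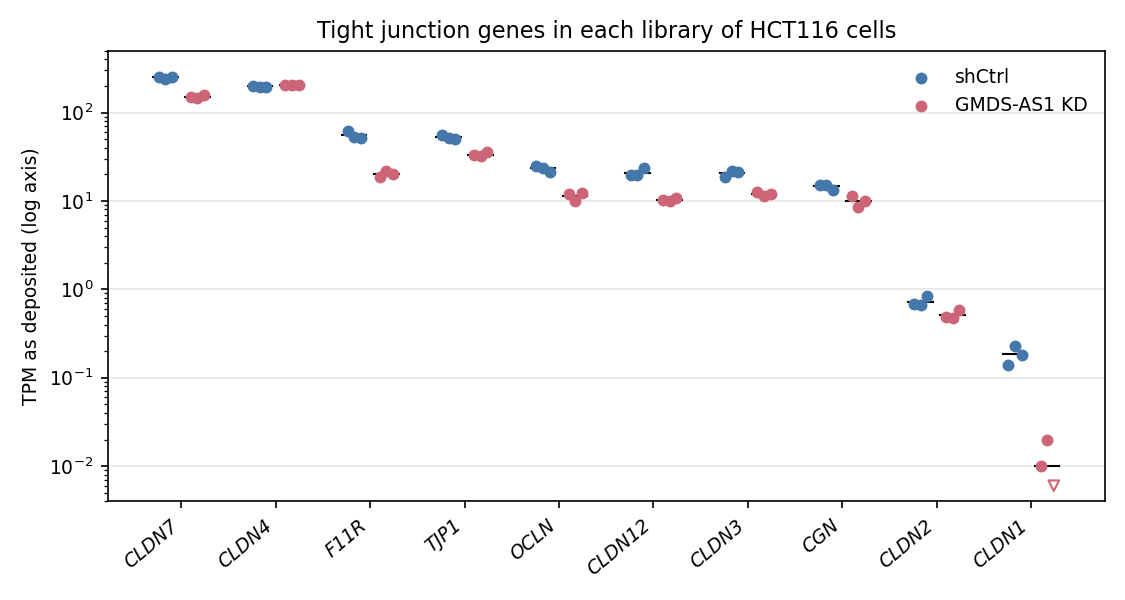
TPM as deposited (log axis) of the 10 genes in each of the 6 libraries, shCtrl in blue and GMDS-AS1 KD in red, with black bars at the group means (n = 3) and an open triangle for a value of 0. The KD points lie below the shCtrl points for 9 genes and above them for CLDN4, where both groups lie between 195.02 and 204.77 TPM.

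CLDN7 and CLDN4 were the most abundant of the 10 genes in both groups, and their order differed between the groups. CLDN7 (ENSG00000181885, chr17:7259903-7263983, minus strand), a claudin of the lateral membrane of epithelial cells, had 255.11, 242.25 and 255.22 TPM in shCtrl cells and 148.62, 146.86 and 157.78 TPM in KD cells. The KD libraries were all lower, with no overlap. The mean fell from 251 ± 7.46 to 151 ± 5.86 TPM (SD, n = 3 each), 60.2% of the shCtrl level, and the log2 fold change was -0.48 (SE 0.037, limma adjusted p = 5.52e-05).

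CLDN4 (ENSG00000189143, chr7:73799542-73832693, plus strand), a claudin that lowers the passage of sodium ions, had 200.99, 195.02 and 196.12 TPM in shCtrl cells and 202.46, 203.9 and 204.77 TPM in KD cells. Each KD value was above each shCtrl value, by little. The means were 197 ± 3.18 and 204 ± 1.17 TPM, so the KD level was 103% of the shCtrl level as deposited and 123% after scaling. The log2 fold change was 0.29 (SE 0.025, limma adjusted p = 9.79e-05) after trimmed mean scaling and 0.20 (limma adjusted p = 0.000853) after upper-quartile scaling, but 0.05 (limma adjusted p = 0.162) with TPM as deposited, so the call of a rise rests on the scaling. Over its 13 alternatives the adjusted p of CLDN4 ranged from 9.96e-05 to 0.162.

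CLDN3 (ENSG00000165215, chr7:73768997-73770270, minus strand), a sealing claudin with 1 annotated transcript, had 18.6, 21.71 and 21.06 TPM in shCtrl cells and 12.54, 11.39 and 11.85 TPM in KD cells. All KD libraries were lower, and the log2 fold change was -0.50 (SE 0.073, limma adjusted p = 0.0012). CLDN12 (ENSG00000157224, chr7:90383721-90513402, plus strand), a claudin that lacks the PDZ-binding end by which most claudins hold ZO proteins, had 19.69, 19.45 and 23.61 TPM against 10.15, 9.93 and 10.83 TPM. The groups lay well apart, the KD level was 49.3% of the shCtrl level, and the log2 fold change was -0.72 (SE 0.089, limma adjusted p = 0.000515). Of the claudins tested here, CLDN12 showed the lowest log2 fold change of TPM + 1. By the ratio of deposited TPM, the less abundant CLDN6, CLDN20 and CLDN23 stood lower, at 28.9, 43.0 and 44.3% of the shCtrl level.

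The other claudins among the 10 genes had low levels, at or under 0.83 TPM in every library. CLDN2 (ENSG00000165376, chrX:106900164-106930861, plus strand), the cation pore, had 0.68, 0.66 and 0.83 TPM in shCtrl cells and 0.49, 0.47 and 0.58 TPM in KD cells. The groups did not overlap in TPM but did after scaling, and the log2 fold change was -0.09 (95% interval -0.36 to 0.17, limma adjusted p = 0.514). Only the KD value of 0.58 TPM reached the 0.5 TPM of the filter, so CLDN2 passed it mainly through the shCtrl libraries. CLDN1 (ENSG00000163347, chr3:190305701-190322475, minus strand) had 0.14, 0.23 and 0.18 TPM against 0.01, 0.02 and 0 TPM and did not pass the filter on low values. All KD values were lower, and in a fit without the filter its log2 fold change was -0.21 (limma adjusted p = 0.0109), a size bounded by the pseudocount of 1. The files hold 2 decimals, so the KD values of CLDN1 stand 0 to 2 steps above 0.

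OCLN (ENSG00000197822, chr5:69492292-69558104, plus strand), which encodes occludin, had 25.04, 23.63 and 21.23 TPM in shCtrl cells and 12.07, 9.97 and 12.29 TPM in KD cells. The KD level was 49.1% of the shCtrl level, with no overlap, and the log2 fold change was -0.74 (SE 0.088, limma adjusted p = 0.000459). F11R (ENSG00000158769, chr1:160995211-161021348, minus strand), which encodes JAM-A, an adhesion receptor that recruits polarity proteins to the junction, had 61.43, 52.87 and 51.78 TPM against 18.42, 21.95 and 20.12 TPM. Its mean fell from 55.4 ± 5.28 to 20.2 ± 1.77 TPM, and its log2 fold change of -1.17 (SE 0.088, limma adjusted p = 4.78e-05) stood at percentile 2.76 among all genes tested.

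Of the plaque genes, TJP1 (ENSG00000104067, chr15:29699367-29968865, minus strand), the scaffold ZO-1, had 55.52, 51.14 and 50.77 TPM in shCtrl cells and 32.75, 32.16 and 35.53 TPM in KD cells. All KD libraries were lower, and the log2 fold change was -0.39 (SE 0.051, limma adjusted p = 0.000653). CGN (ENSG00000143375, chr1:151510510-151538692, plus strand), cingulin, had 15.33, 15.23 and 13.39 TPM against 11.24, 8.46 and 9.9 TPM. The groups did not overlap, but the spread was wide for the size of the change, with a log2 fold change of -0.30 (SE 0.10, limma adjusted p = 0.0393, 0.00484 to 0.122 over 13 alternatives). Its call was lost without the filter, without the variance trend, and when shCtrl 1, shCtrl 2, KD 2 or KD 3 was left out, with log2 fold changes of -0.29, -0.30, -0.21 and -0.30 in those last cases.

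**Figure D2:**
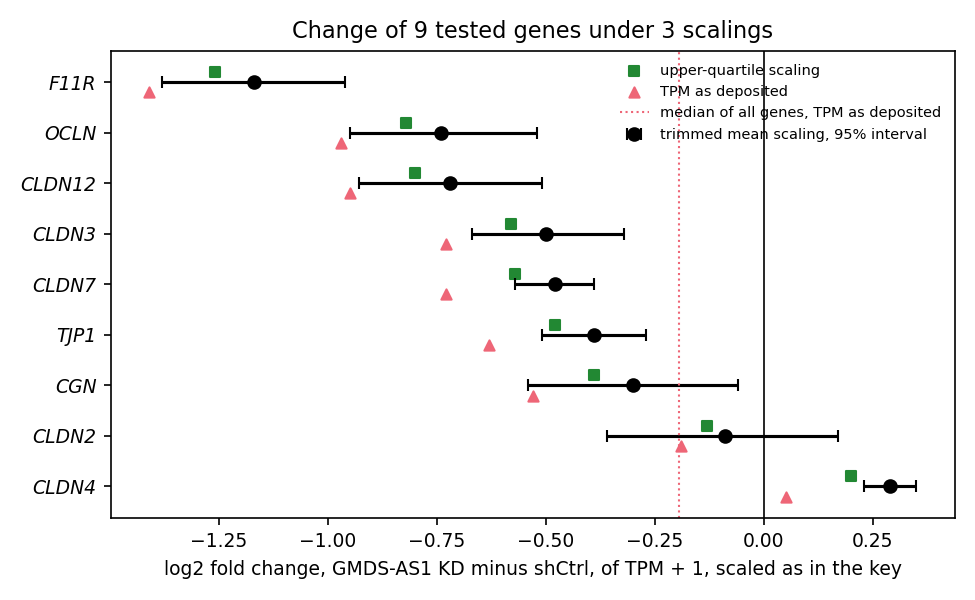
Log2 fold change (KD minus shCtrl, of TPM + 1) of the 9 tested genes, with black points and 95% intervals after trimmed mean scaling, green squares after upper-quartile scaling and red triangles for TPM as deposited. The scaling shifts every gene the same way, F11R is the lowest under each (-1.17, -1.26 and -1.41), and the triangle of CLDN4 lies at 0.05.

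Ranked by level in the shCtrl libraries, CLDN7 came first and CLDN4 second, and their ranges did not meet. F11R and TJP1 overlapped below them, then OCLN, CLDN12 and CLDN3 overlapped, followed by CGN, CLDN2 and CLDN1. In the KD libraries CLDN4 stood above CLDN7 and TJP1 (32.16 to 35.53 TPM) above F11R (18.42 to 21.95 TPM), while CLDN3, OCLN, CLDN12 and CGN formed a chain of overlapping ranges from 8.46 to 12.54 TPM.

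The share of each claudin in the summed TPM of CLDN1, CLDN2, CLDN3, CLDN4, CLDN7 and CLDN12 does not depend on the scaling between libraries. The sum was 495.2, 479.3 and 497.0 TPM in shCtrl cells and 374.3, 372.6 and 385.8 TPM in KD cells. CLDN4 made up 40.6, 40.7 and 39.5% of it in the shCtrl libraries and 54.1, 54.7 and 53.1% in the KD libraries. CLDN7 made up 51.5, 50.5 and 51.4% against 39.7, 39.4 and 40.9%.

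The mean share of CLDN4 was thus 13.7 percentage points higher in KD cells and that of CLDN7 differed by -11.1 points. The ratio of CLDN4 to CLDN7 was 0.788, 0.805 and 0.768 in shCtrl cells and 1.36, 1.39 and 1.3 in KD cells. The mean share of CLDN12 was 4.26% in shCtrl cells and 2.73% in KD cells, and that of CLDN3 was 4.17 and 3.16%. For CLDN1, CLDN3, CLDN4, CLDN7 and CLDN12 the two-sided exact permutation test gave p = 0.1, the smallest value that 3 against 3 libraries allow, or 0.12 adjusted over the 6 claudins, so no share could pass 0.05. For CLDN2 the exact permutation p was 0.5, with mean shares of 0.147 and 0.136%.

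**Figure D3:**
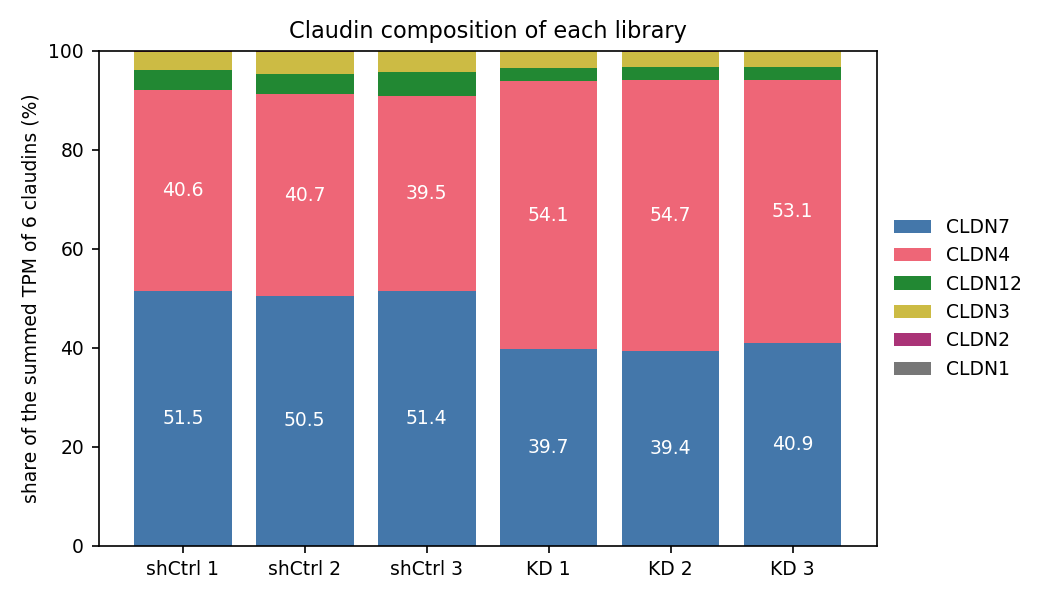
Share (%) of each of 6 claudins in their summed TPM, 1 bar per library, with the shares of CLDN4 and CLDN7 printed. CLDN7 is the larger share in the 3 shCtrl bars and CLDN4 in the 3 KD bars, and CLDN1 and CLDN2 are too small to be seen.

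The other 18 claudin genes of the file added little to the sum, since the 6 claudins held 95.4 to 96.6% of the TPM of all 24. The largest of the rest was CLDN15, a cation-pore claudin of the intestine, with 12.76, 11.7 and 12.99 TPM in shCtrl cells and 15.66, 15.21 and 12.78 TPM in KD cells. The groups overlapped in TPM, and the log2 fold change was 0.43 after scaling (limma adjusted p = 0.00719) and 0.20 as deposited (limma adjusted p = 0.0902). Its share of all claudin TPM was 2.36 to 2.52% and 3.18 to 3.99%. Of the 18, 4 were tested, and CLDN23 (-0.62) and CLDN6 (-0.49) were lower while CLDN20 was not called. CLDN6 and CLDN20 were under 0.5 TPM in every KD library and so passed the filter through the shCtrl libraries alone, which favours a lower value, and their calls are a description. As deposited, 3 of the 4 were lower and 0 higher. A further 4 were listed at 0 in every library.

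Calls in the rest of the junction were counted over lists whose choice was also made with earlier results of these data known, and each count is to be read against the 25.9% of all tested genes called lower and the 28.5% called higher after scaling (40.3% and 16.3% as deposited). The lists were not tested against each other or against other genes. Of 10 other membrane proteins of the tight junction, 7 were tested, 5 were lower and 1 higher. Their median was -0.31 on the log2 scale. ILDR2, an angulin of the tricellular junction, had 2.75, 3.2 and 2.51 TPM in shCtrl cells and 0.35, 0.17 and 0.21 TPM in KD cells (log2 fold change -1.50, limma adjusted p = 6.77e-05). All its KD values were under the filter, so it was tested through the shCtrl libraries alone and its call is a description. MARVELD2, or tricellulin, was the one called higher after scaling (0.31, limma adjusted p = 0.0103), but not as deposited (0.09, limma adjusted p = 0.358), where 5 of the 7 were lower and 0 higher.

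Of 12 other plaque proteins, 10 were tested, and 3 were lower and 3 higher, with a median of 0.08. As deposited, 4 were lower and 2 higher. CGNL1, the paralogue of cingulin, was the lowest at -0.80 (limma adjusted p = 0.000656). YBX3, the ZO-1-associated Y-box protein ZONAB, was the highest, with 306.29, 274.85 and 299.87 TPM in shCtrl cells and 494.88, 488.61 and 501.26 TPM in KD cells (log2 fold change 1.00, limma adjusted p = 5.18e-06). Of 12 polarity proteins, with PALS1 listed as MPP5, 11 were tested, 4 were lower and 3 higher, with a median of -0.07, against 5 lower and 1 higher as deposited. CRB3, the crumbs protein of the apical membrane, was past 2-fold (26.71, 22.18 and 21.93 against 9.01, 9.28 and 9.64 TPM, log2 fold change -1.02, limma adjusted p = 6.64e-05), and PARD6G was the highest at 0.45 (limma adjusted p = 0.0039).

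The adherens junction lies below the tight junction and the desmosomes below that. Of 9 adherens junction genes, 5 were higher and 3 lower, with a median of 0.38. NECTIN1, an adhesion receptor, was past 2-fold at 1.04 (limma adjusted p = 0.000102), and NECTIN2 was the lowest at -0.25 (limma adjusted p = 0.0147). CDH1, the gene of E-cadherin, was not called (0.12, limma adjusted p = 0.391). Of 6 desmosome genes, 4 were lower and 2 higher, from -0.89 for the cadherin DSC2 to 0.72 for JUP, plakoglobin, with a median of -0.20. As deposited, the counts were 3 lower and 4 higher for the adherens junction and 4 lower and 2 higher for the desmosomes.

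Transcription factors known to act on claudin genes gave 2 lower calls and no higher one among 7 tested of 11, a share near the 25.9% of all tested genes called lower. As deposited, 4 of the 7 were lower, where 40.3% of all tested genes were. GRHL1, a grainyhead factor of epithelial genes, was lower, with 8.77, 8.51 and 9.48 TPM against 3.5, 2.94 and 2.72 TPM (log2 fold change -1.09, limma adjusted p = 0.000133), and HNF4A was lower at -0.27 (limma adjusted p = 0.0487). SNAI1, which encodes Snail, had a log2 fold change of -0.01 (limma adjusted p = 0.916) after scaling and of -0.24 (limma adjusted p = 0.0224) as deposited, so its call depends on the scaling. ZEB1 had a log2 fold change of -0.14 (limma adjusted p = 0.341). SNAI2, which encodes Slug, did not pass the filter and stood at 0.48 to 0.85 TPM in shCtrl cells and 0.07 to 0.14 TPM in KD cells.

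**Figure D4:**
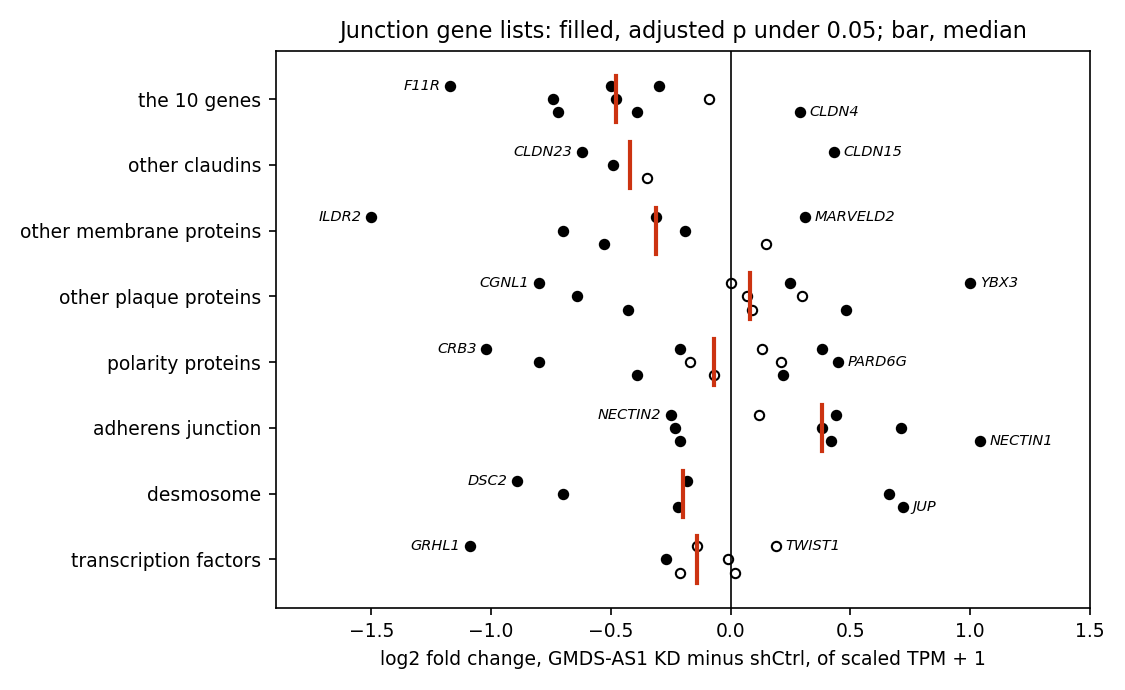
Log2 fold change (KD minus shCtrl, of scaled TPM + 1) of the tested genes of 8 lists, 1 point per gene, filled where the limma adjusted p is under 0.05, with a red bar at each median and the lowest and highest gene named. The medians run from -0.48 for the 10 genes to 0.38 for the adherens junction, and each list but the transcription factors holds calls in both directions.

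Some epithelial markers were lower together with the 7 lower genes. Of the 8 epithelial markers 7 were tested and 3, KRT8, KRT18 and KRT19, were lower, by -1.46, -1.83 and -0.26 on the log2 scale, while EPCAM (0.18, limma adjusted p = 0.0758), CDH1, KRT20 and CDX2 were not called. Among all tested genes 25.9% were called lower after scaling and 40.3% as deposited, where the same 3 markers were lower. The summed level of the 8 was 9173 to 9622 TPM in shCtrl cells and 3446 to 3548 TPM in KD cells. Most of this sum was KRT8, KRT18 and KRT19 (means of 4430, 2970 and 1770 TPM in shCtrl cells), so it mainly restates their fall. The part of these markers in the result was not tested.

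The position of the genes was then compared with the changes of their neighbours. CLDN3 and CLDN4 are next to each other on chromosome 7, on opposite strands and 29271 bases apart. CLDN3 was lower and CLDN4 higher after scaling, as was ABHD11 (1.09, limma adjusted p = 1.13e-05) on the other side of CLDN3 and METTL27 (0.49, limma adjusted p = 0.000374) on the other side of CLDN4. Thus of these 4 neighbours CLDN3 alone was lower.

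OCLN lies between MARVELD2 and GTF2H2C, which was lower at -0.30 (limma adjusted p = 0.00274). CGN lies between POGZ and TUFT1, which were both lower, at -0.79 (limma adjusted p = 0.000132) and -0.74 (limma adjusted p = 0.00013). CLDN7 lies beside CTDNEP1, which was higher at 0.66 (limma adjusted p = 1.87e-05), and overlaps ELP5 on the opposite strand, which was higher at 0.20 (limma adjusted p = 0.0117). Whether the counting used the strand is not given in the sources used here, so reads of overlapping genes on opposite strands may not be told apart. This holds most for CLDN2, which overlaps MORC4 on the opposite strand, a gene at 9.77 to 18.66 TPM against 0.47 to 0.83 TPM of CLDN2. CLDN16, whose start lies 65 bases from that of CLDN1, had at most 0.09 TPM. On the same strand, CLDN12 overlaps GTPBP10 (12.8 to 16.1 TPM in shCtrl cells, 7.68 to 11.67 TPM in KD cells) and CDK14. Neither was called (-0.40, limma adjusted p = 0.0655, and -0.17, limma adjusted p = 0.217). P3H2 on the other side of CLDN1 (-0.59, limma adjusted p = 0.00448) was lower. So was FZD1 (-0.54, limma adjusted p = 0.00512), the next protein-coding gene past CLDN12, 750961 bases away. Both P3H2 and FZD1 were under 0.5 TPM in every KD library and were tested through the shCtrl libraries alone.

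Reads that fit more than 1 gene concern F11R most. Of the 75-base windows of its principal transcript, 37.4% were also found in AL591806.3, a readthrough gene that overlaps it, which had 7.0, 6.7 and 8.29 TPM in shCtrl cells and 2.1, 2.71 and 1.88 TPM in KD cells. Its log2 fold change of -1.18 (limma adjusted p = 0.000385) was close to that of F11R, while TSTD1, the next gene, was at 0.01 (limma adjusted p = 0.814). How the deposited values split such reads is not given in the sources used here, so the level of F11R is uncertain to that degree. The shared windows were 13.3% for CLDN7, 8.75% for CLDN2, 7.5% for OCLN and 3.78% for CLDN12, and none was shared for CLDN1, CLDN3, CLDN4, TJP1 and CGN.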

How the data were processed

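Poly-A RNA of HCT116 cells was sequenced in 3 shCtrl and 3 GMDS-AS1 KD libraries, grouped by their labels. The authors deposited 1 TPM value per Ensembl gene and library, rounded to 2 decimals. Their methods name Cufflinks, RSEM and, for their own comparison, DESeq2, and the submitters' processing notes list Trimmomatic 0.27, TopHat2 2.1.1 and GRCh38.p13. How reads that fit several genes were counted is not given in the sources used here, and the depth is unknown. Another 2 genes with broken lines were left out.

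TPM was scaled by an unweighted trimmed mean (30% of log ratios and 5% of mean values trimmed from each end) and log2(TPM + 1) was compared with limma 3.58.1 (R 4.3.3), letting the variance follow mean expression and without a block, after a filter of 0.5 TPM in 3 libraries. Count models were not used because TPM are not counts. The fit was tested on simulated data. Claudin shares were compared by a two-sided exact permutation test in scipy 1.17.1. Python 3.11.15 with pandas 2.3.3 was used otherwise. Positions and transcripts are from GENCODE v29 (GRCh38) and promoters from RefSeq (GRCh38.p14); 58394 gene identifiers were found in the former. The shRNA sequence is from the table of oligonucleotides of the study.

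The 10 genes, the lists and the tests were chosen with earlier results of these data known. The genes named are the 10 genes, GMDS-AS1, the called genes with the highest and lowest change of each list, any past 2-fold, neighbours and markers; CDH1, SNAI1, SNAI2 and ZEB1 and the other members of short lists were named after their values were seen. The alternatives tried were other scalings, a pseudocount of 0.1, other filters (none, or 1 TPM), no variance trend, a replicate block, shares of all claudins and the omission of each library in turn. A comparison of the claudin proteins was planned and not made.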

Additional observations from a re-analysis of the deposited data

How the results depend on the processing

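The log2 fold changes of CLDN3, CLDN7, CLDN12, OCLN, TJP1 and F11R kept their direction and their call under all 13 alternatives, and CLDN2 stayed uncalled under its 12. It has no value under the filter of 1 TPM. With TPM as deposited, CLDN4 was no longer called (0.05, adjusted p = 0.162), so 0 of the 9 genes were higher, and over all genes 6814 were lower and 2756 higher. CGN was not called without a filter (-0.27, adjusted p = 0.122) or without the variance trend (-0.30, adjusted p = 0.0516). When each library was left out in turn, CGN ranged from -0.39 to -0.21 and lost its call in 4 of 6 cases, CLDN4 ranged from 0.26 to 0.30 and F11R from -1.24 to -1.11. The number of genes called lower was 6 to 7. The replicate numbers of the labels did not pair the libraries: same-numbered libraries deviated together with r of 0.029, -0.0376 and 0.0142 across genes. With the replicate number as a block, none of the calls of the 9 genes changed (CGN -0.30, adjusted p = 0.0476), and 4095 and 4536 of all genes were lower and higher. The cause of these differences was not tested. TPM without read totals limits what can be said of CLDN1 and CLDN2.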
